A study of Rattus norvegicus with 8 samples.

Results

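Solute carriers outside the families that move neurotransmitters were read on 273 of the 15207 probes that are not controls, which name 224 genes of 12551 genes and unnamed probes. They are the probes whose gene name begins with Slc and a number, without the Slc1a, Slc6a, Slc17a, Slc18a and Slc32a families, and each gene is represented by its brightest probe. The study asked what fluoxetine given after birth leaves behind in gene expression of the adult rat hippocampus. The PNFLX group, 4 samples, had received fluoxetine, which blocks serotonin reuptake, as pups at a dose of 10 mg/kg. The control group, also 4 samples, had received the vehicle, sucrose at 5%. Dosing began on postnatal day 2 and, by the protocol, ended on day 21, while the sample descriptions give last days of 25 to 28 for PNFLX 1 to 4 and of 21 to 24 for control 1 to 4. All animals were 2 months old, whole hippocampi were taken, and the labels used here give no strain or sex. They do not say that each sample came from a separate animal, so the p-values measure only the spread between these samples.

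Solute carriers are membrane proteins that pass sugars, amino acids, ions, metals, nucleotides or cofactors across the cell surface or the membranes of organelles, either down a gradient or coupled to the movement of sodium, protons or chloride. In the hippocampus they are known for setting the chloride level of neurons, for bringing glucose and lactate from blood and glia, for loading synaptic zinc, and for exchanging metabolites across the mitochondrial membrane. A separate set of low-affinity carriers of the Slc22 and Slc29 families takes up serotonin and other monoamines beside the high-affinity serotonin transporter that fluoxetine blocks.

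Each probe is a 60-base oligonucleotide, and 45 carriers had more than 1 spot on the array. For 33 of them all spots carried the same 60 bases, so that the array measured the same target again elsewhere on the glass. The sequences below are shown because their spots give the results that follow: Slc12a7 and Slc16a6, whose repeated spots disagreed, Slc22a13, whose repeated spots gave differences of the same sign, and Slc37a2 and Slc35b3, the carriers with the smallest p. They are written 5′ to 3′ in lower case as deposited, with no letter in capitals, and their rn4 positions are taken from the files.
Slc12a7 (rows 14 and 148): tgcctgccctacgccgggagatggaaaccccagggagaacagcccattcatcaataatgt
Slc12a7 (row 42): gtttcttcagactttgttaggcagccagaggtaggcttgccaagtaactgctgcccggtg
Slc16a6 (rows 87 and 192): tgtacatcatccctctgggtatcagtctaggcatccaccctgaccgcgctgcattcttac
Slc22a13 (both in row 160): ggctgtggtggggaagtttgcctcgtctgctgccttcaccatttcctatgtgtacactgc
Slc37a2 (row 159): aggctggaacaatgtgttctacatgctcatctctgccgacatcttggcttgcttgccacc
Slc35b3 (row 116): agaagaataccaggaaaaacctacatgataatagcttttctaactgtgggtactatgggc
The repeated Slc12a7 probe maps to chr1:30315937-30336975, a span of 21039 bases for 60 bases of probe, and the Slc35b3 probe to chr17:31920117-31928680, a span of 8564 bases. The Slc37a2 probe maps to chr8:38493523-38493912, a span of 390 bases. Positions are unbroken for Slc16a6 at chr10:98887308-98887367, for Slc22a13 at chr8:124180280-124180339 and for the row 42 probe of Slc12a7 at chr1:30284085-30284144. No annotation on rn4 was used, so exon and UTR are not given.

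Values are log2 of the array's processed signal minus the 75th percentile of that array, so 0 is the level that 25% of the probes exceed. All 8 arrays lay on 1 slide, PNFLX in slide row 2 and controls in slide row 1, so the row of the slide cannot be told apart from the treatment. The 75th percentile of signal lay between 873 and 941 on PNFLX arrays and between 654 and 880 on control arrays. PNFLX 3 stood apart at the low end, with a 25th percentile of signal of 30.6 against 13.2 to 15.9 on the other 7 arrays. Of 10 hippocampal neuron markers 8 were measured, among them Nrgn, Camk2a and Prox1, and 5 of 8 were higher (median 0.04). Among them only Nrgn had separate groups, lower in every PNFLX sample than in any control (-0.54, SE 0.15, adjusted p = 0.173). Its spot lies in row 19, near an end of the array. Oligodendrocyte markers were lower in 8 of 8 (median -0.31) and astrocyte markers in 6 of 7 (median -0.30). Blood markers, which include the carrier Slc4a1, were higher in 4 of 4 (median 0.27), and microglia markers were lower in 5 of 7 (median -0.16). No gene of these lists passed the test. Endothelium markers were higher in 3 of 7 (median -0.07). Of these Emcn passed, 4.91-fold higher in PNFLX (adjusted p = 0.0317), on a spot in row 1 with 1 control array well above background. The part of these cell types in the carriers' values was not tested. Choroid plexus markers (7 of 10 measured) were lower in 7 of 7 (median -0.30). They summed to 3.30 to 5.64 in PNFLX and to 3.34 to 43.3 in controls, in units of the 75th percentile. Control 4 held the high value, with Ttr at 5.07. Meningeal markers (8 of 8 measured) were higher in 7 of 8 (median 0.41). Their sums were 17.7 to 43.7 in PNFLX and 14.2 to 18.8 in controls, with PNFLX 1 highest. In these 2 lists, too, 0 genes passed the test. In tissue of many cell types, fewer cells of a type and less RNA per cell cannot be told apart.

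A carrier was called measured where 4 or more of the 8 arrays had its probe well above background, which 175 of the 224 carriers were (78.1%, against 75.2% of all genes and unnamed probes). On all 8 arrays 148 were well above background. On no array were 31, among them Slc12a3, the thiazide-sensitive cotransporter of the kidney, Slc5a1 and Slc5a2, which take up glucose in gut and kidney, and Slc30a8, the zinc carrier of insulin granules. Mitochondrial carriers were measured most often, 18 of 20 (90.0%), followed by nucleoside and nucleotide sugar carriers with 17 of 19 (89.5%). Organic ion and bile acid carriers were measured least often, 14 of 22 (63.6%). Every measured carrier had at least 1 sample above background in each group, and 1 had a saturated spot.

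**Figure D1:**
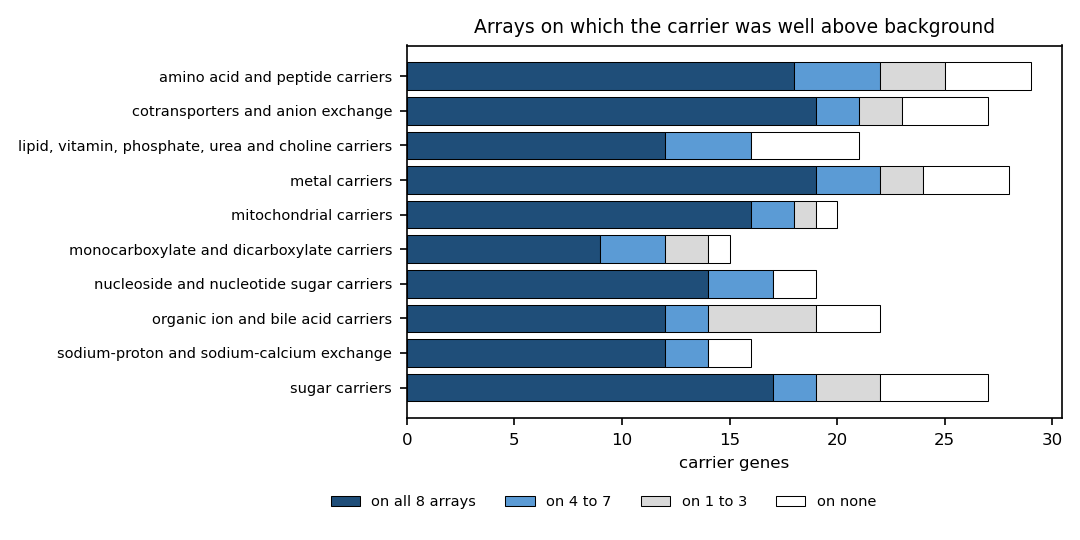
Number of carrier genes by family group (vertical) whose probe was well above background on all 8 arrays, on 4 to 7, on 1 to 3 or on none (bar segments, horizontal axis in genes). The first 2 segments together are the 175 measured carriers. The measured share ran from 14 of 22 organic ion and bile acid carriers (63.6%) to 18 of 20 mitochondrial carriers (90.0%).

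No carrier passed the test for PNFLX against control. In limma's moderated test with Benjamini-Hochberg adjustment over 9442 genes, 0 of 175 carriers had an adjusted p under 0.05, where 0.508% of all genes did, and the smallest adjusted p of a carrier was 0.0931. Of the 48 genes that passed 7 had their spot in rows 21 to 172, and 0 genes passed without the first and last 5 spot rows. At an unadjusted p under 0.05 there were 24 carriers, 8 higher and 16 lower in PNFLX, where 12.8% of all genes met that limit, 5.06% higher and 7.69% lower. The 4 PNFLX values lay wholly above or wholly below the 4 control values for 21 carriers, 6 higher and 15 lower, where 11.0% of all genes were so placed, 4.46% higher and 6.57% lower. Both shares of carriers were close to those of all genes. In all, 73 carriers were higher and 102 lower in PNFLX (58.3% lower, against 54.5% of all genes), and their median log2 difference was -0.09, against -0.04 over all genes. Differences beyond 0.5 on the log2 scale were found for 19 carriers higher and 15 lower, 19.4% of carriers against 18.5% of all genes. The median SE of a carrier's difference was 0.22, ranging up to 1.28.

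The split of higher and lower carriers moved with the background correction and when scaling between arrays was left out. With quantile normalization 41.1% of carriers were higher, and with a median as the scale 42.9%, against 41.7% in the values used. With a background correction of the mean signal (normexp) 35 of 175 carriers were higher in PNFLX and the median of all genes was -0.39. Without scaling between arrays 134 were higher and the median of all genes was 0.26, where 73 were higher in the values used here. Of the measured carriers 4 are not carriers by function or by current name: Slc9a3r1, Slc9a3r2 and Slc4a1ap are binding proteins, and the accession of the Slc35b2 probe now names Nfkbie. Without them 73 were higher and 98 lower, and the counts by family group below include all 4 among the lower members.

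**Figure D2:**
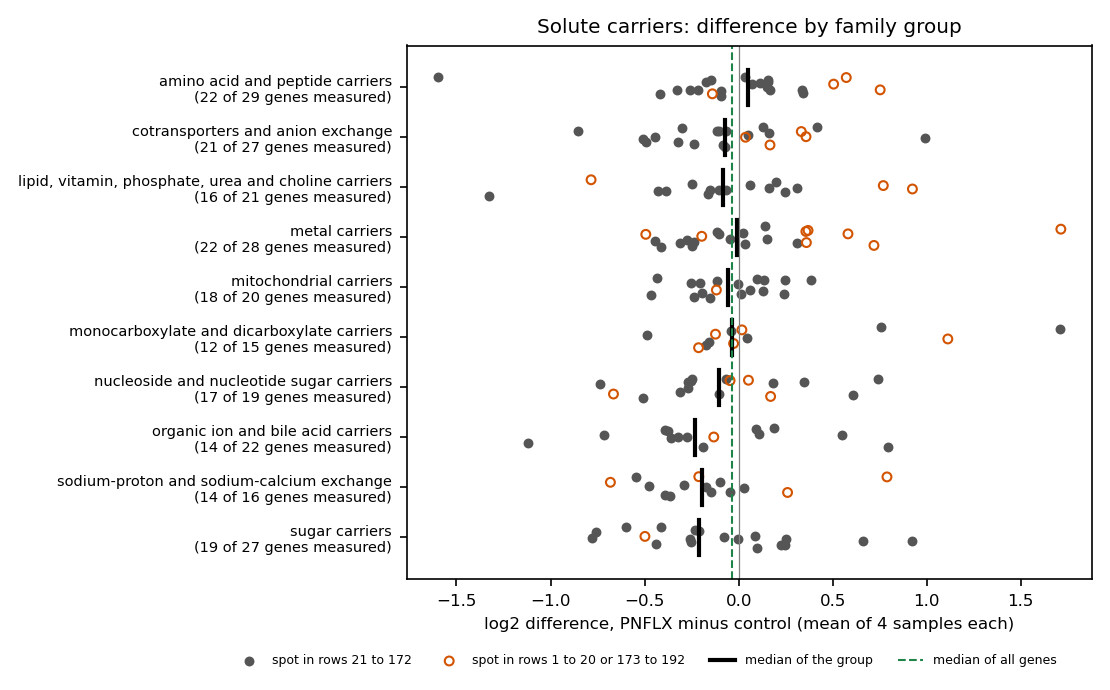
Log2 difference, PNFLX minus control (horizontal), of each of the 175 measured carriers by family group (vertical); black bars are group medians and the dashed line is the median of all genes, -0.04. Group medians lie between -0.23 for organic ion and bile acid carriers and 0.05 for amino acid and peptide carriers, and open circles are spots within 20 rows of an end of the array.

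Among cation-chloride cotransporters and anion exchangers, 21 of 27 were measured, 9 higher and 12 lower, with a median of -0.07. In the Slc12 family, whose members couple chloride to sodium or potassium, 1 was higher and 6 were lower at the spots used. The lower ones include Slc12a7, which was higher at another spot of the same bases (1.63, SE 0.51), given below. Slc12a5, the potassium-chloride cotransporter KCC2 that keeps chloride low in mature neurons, had -2.54, -2.82, -2.52 and -3.51 in PNFLX 1 to 4, against -2.28, -2.61, -2.26 and -2.46 in control 1 to 4. PNFLX 4 was the lowest and the groups overlapped, with a difference of -0.45 (SE 0.23, adjusted p = 0.467). Its counterpart Slc12a2, the NKCC1 cotransporter that brings chloride in, had -3.88, -4.18, -3.90 and -4.53 in PNFLX, against -3.95, -3.93, -3.96 and -3.71 in controls. Control 4, which also held the choroid plexus markers, was the highest, and the difference was -0.24 (SE 0.17, adjusted p = 0.587); the part of that tissue in this value was not tested.

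Slc12a1, the NKCC2 cotransporter known from the kidney, was the one member of its family that was higher at the spots used. Its values were -4.04, -4.44, -4.93 and -3.65 in PNFLX, against -5.20, -5.06, -5.54 and -5.23 in controls. The groups did not overlap and PNFLX was 1.99-fold higher, a log2 difference of 0.99 (SE 0.27, adjusted p = 0.177), with 3 arrays of each group well above background. Slc26a8, an anion carrier known from testis, had -3.11, -3.24, -2.98 and -3.83 in PNFLX, against -2.73, -2.71, -2.88 and -2.80 in controls. Here too the groups were separate, with a difference of -0.51 (SE 0.19, adjusted p = 0.329). Slc4a10, the sodium-bicarbonate carrier of neurons, ranged from -2.11 to -0.38 in PNFLX and from -2.33 to -0.52 in controls, a spread many times its difference of 0.04 (SE 0.48).

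Sodium-proton and sodium-calcium exchangers, counted with the binding proteins Slc9a3r1 (-0.68) and Slc9a3r2 (-0.48), had 3 members higher and 11 lower of 14 measured. The median was -0.19, and PNFLX 4 lay 0.40 below each gene's mean in the median of the group. Slc9a5, a sodium-proton exchanger of neurons, had 0.10, 0.07, 0.56 and 0.42 in PNFLX, against 0.70, 0.72, 0.58 and 0.70 in controls. All PNFLX values were below all control values, narrowly in PNFLX 3, and the difference was -0.39 (SE 0.15, adjusted p = 0.329). At a second spot of the same bases, in row 37, the groups overlapped and the difference was -0.21 (SE 0.16). Slc8a1, a sodium-calcium exchanger, differed by 0.26 (SE 0.37), with control 4 alone low at -5.05 where the other controls had -3.57 to -3.33. Slc9a3, an exchanger known from gut and kidney, differed by -0.55 (SE 0.26, adjusted p = 0.429) and was well above background on 2 PNFLX and 4 control arrays.

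Sugar carriers and the sodium-coupled Slc5 family had 7 members higher and 12 lower of 19 measured, with a median of -0.21. Slc37a2, which exchanges sugar phosphates at the endoplasmic reticulum, had -4.58, -4.08, -4.31 and -4.65 in PNFLX, against -3.64, -3.58, -3.80 and -3.48 in controls. Every PNFLX value was below every control value, and PNFLX was 1.72-fold lower. This was the carrier of smallest p (difference -0.78, SE 0.16, adjusted p = 0.0931), and it did not pass. The main glucose carrier of brain capillaries, Slc2a1, had 2.67, 2.59, 2.76 and 2.92 in PNFLX, against 2.58, 2.92, 2.78 and 2.95 in controls, a difference of -0.08 (SE 0.14). The neuronal glucose carrier Slc2a3 had -3.62, -3.91, -3.10 and -3.83 in PNFLX, against -3.53, -5.44, -3.11 and -3.28 in controls. Control 2 alone was low, and the difference was 0.23 (SE 0.49). Slc5a6, which takes up biotin and pantothenate with sodium, had 1.53, 1.43, 1.55 and 1.94 in PNFLX, against 2.49, 1.85, 1.84 and 2.26 in controls, a difference of -0.50 (SE 0.20, adjusted p = 0.343) with PNFLX 4 inside the control range.

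Amino acid and peptide carriers had 12 members higher and 10 lower of 22 measured, and 0 had groups that did not overlap, where 11.0% of all genes did. Slc43a2, a carrier of large neutral amino acids, had -2.19, -2.41, -2.72 and -3.59 in PNFLX, against -3.42, -3.49, -3.55 and -3.46 in controls. PNFLX 1 to 3 were above the controls and PNFLX 4 was below them, with a difference of 0.75 (SE 0.28, adjusted p = 0.317). Its spot lies in row 5 of 192. Slc7a3, which carries arginine and lysine, had -0.52, -0.49, 0.04 and -0.55 in PNFLX, against 0.29, 0.15, -0.07 and -0.20 in controls, a difference of -0.42 (SE 0.18, adjusted p = 0.394). The same 60 bases at a second spot, in row 32, gave a difference of 0.0035 (SE 0.23). Subtracting row and column medians turned Slc7a3 to 0.074.

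Slc38a1, a glutamine carrier of neurons, had -8.12, -1.97, -1.91 and -2.35 in PNFLX, against -1.98, -1.97, -2.02 and -1.99 in controls. PNFLX 1 alone was low, and its spot was not well above background there, while the other 7 samples lay close together. The difference was -1.60 (SE 1.28, adjusted p = 0.618), and -0.087 without PNFLX 1. Slc38a2, a glutamine carrier also found in glia, differed by -0.17 (SE 0.39) and had its lowest value, -4.09, on the same array. The cystine-glutamate exchanger Slc7a11 differed by 0.07 (SE 0.20), with PNFLX 1 the highest at -2.13 and the other PNFLX samples at -3.02 to -2.75, against -2.94 to -2.66 in controls. Slc7a5, the carrier of large neutral amino acids at the blood-brain barrier, differed by 0.34 (SE 0.50), with control 3 alone low at -4.20.

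Monocarboxylate and dicarboxylate carriers had 5 members higher and 7 lower of 12 measured. Slc16a10, which carries aromatic amino acids and thyroid hormones, had -4.21, -4.45, -4.08 and -3.31 in PNFLX, against -5.44, -6.66, -6.15 and -4.63 in controls. The groups did not overlap, and PNFLX was 3.27-fold higher (difference 1.71, SE 0.44, adjusted p = 0.156), with 4 PNFLX and 2 control arrays well above background. Slc16a4 also had separate groups, -4.88, -4.88, -3.51 and -5.01 in PNFLX against -5.68, -5.20, -5.29 and -5.14 in controls, a difference of 0.76 (SE 0.33, adjusted p = 0.394). Lactate carriers did not separate the groups: Slc16a1 of capillaries and glia differed by -0.03 (SE 0.19), and Slc16a7 of neurons by 0.04 (SE 0.24). A second spot of the Slc16a7 sequence, in row 158, gave 0.48 (SE 0.23).

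The Slc25 family, most of whose members are carriers of the inner mitochondrial membrane, had 8 members higher and 10 lower of 18 measured. All stayed within -0.46 and 0.38. Slc25a3, which brings phosphate into mitochondria, had 5.66, 5.83, 5.90 and 5.85 in PNFLX, against 5.53, 5.51, 5.79 and 5.42 in controls. Control 3 lay among the PNFLX values, and the difference was 0.25 (SE 0.13, adjusted p = 0.472). Slc25a4, an adenine nucleotide exchanger, differed by 0.10 (SE 0.12), and by -0.01 (SE 0.13) at a second probe in row 121. Slc25a2, which carries ornithine, had the smallest p of the family, a difference of -0.43 (SE 0.17, adjusted p = 0.340), with -5.57 to -5.25 in PNFLX and -5.26 to -4.64 in controls.

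Metal carriers had 11 members higher and 11 lower of 22 measured. Slc30a6, which moves zinc into the Golgi, had -1.02, -1.48, -1.68 and -1.31 in PNFLX, against -1.83, -1.74, -2.12 and -2.12 in controls. All PNFLX values were above all control values, a 1.50-fold difference (log2 0.58, SE 0.18, adjusted p = 0.230), on a spot in row 3 of 192. Subtracting the median of each spot row and column turned it to -0.58. Slc31a1, the copper importer, had -3.89, -3.17, -2.11 and -5.16 in PNFLX, against -5.58, -5.32, -4.90 and -5.38 in controls. PNFLX 4 lay among the controls and only 1 control array was well above background, with a difference of 1.71 (SE 0.56, adjusted p = 0.263) on a spot in row 4.

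Slc39a11, a zinc importer, had -3.48, -3.79, -3.66 and -3.82 in PNFLX, against -3.49, -3.31, -3.05 and -3.25 in controls, a difference of -0.41 (SE 0.15, adjusted p = 0.296). Slc30a3, which loads zinc into the synaptic vesicles of hippocampal mossy fibres, had -0.73, -0.88, -0.64 and -1.30 in PNFLX, against -1.17, -0.49, -0.78 and -0.69 in controls. The ranges overlapped almost wholly, with a difference of -0.11 (SE 0.20, adjusted p = 0.846). Slc39a10, a zinc importer, differed by -0.31 (SE 0.37), with PNFLX 4 alone low at -2.79.

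Organic ion and bile acid carriers had 5 members higher and 9 lower of 14 measured, and 3 of 11 measured Slc22 members were higher. Of the low-affinity monoamine carriers of this family, Slc22a2 was well above background on 0 arrays and Slc22a3 on 1, so neither was compared. Slc29a4, the plasma membrane monoamine transporter of the nucleoside carrier family, was measured on all 8 arrays, with -2.63, -2.85, -2.62 and -3.26 in PNFLX, against -2.41, -2.01, -2.43 and -1.86 in controls. Every PNFLX value was below every control value, 1.59-fold lower (difference -0.67, SE 0.20, adjusted p = 0.230). Its spot lies in row 179, near the end of the array.

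Slc22a12, a urate carrier known from the kidney, had -3.94, -4.18, -3.57 and -4.60 in PNFLX, against -3.37, -3.44, -3.28 and -3.33 in controls. The controls lay close together and all PNFLX samples lay below them, 1.64-fold lower (difference -0.72, SE 0.21, adjusted p = 0.217). Slc22a15 differed by -0.39 (SE 0.15, adjusted p = 0.330), with -3.93 to -3.63 in PNFLX and control 2 among them at -3.75.

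Nucleoside and nucleotide sugar carriers had 6 members higher and 11 lower of 17 measured. Slc35b3, which brings the sulfate donor PAPS into the Golgi, had -3.55, -3.42, -3.24 and -3.82 in PNFLX, against -4.25, -4.23, -4.05 and -4.43 in controls. The groups did not overlap, and PNFLX was 1.67-fold higher (difference 0.74, SE 0.16, adjusted p = 0.102). Slc35c2, linked to the transport of the fucose donor, had -1.69, -1.13, -1.11 and -1.79 in PNFLX, against -1.05, -0.78, -0.88 and -0.98 in controls, separate groups with a difference of -0.51 (SE 0.19, adjusted p = 0.323). Slc35d1, which carries nucleotide sugars for chondroitin sulfate, differed by -0.73 (SE 0.27, adjusted p = 0.303). The purine carrier Slc28a2 differed by 0.61 (SE 0.22, adjusted p = 0.310), and Slc29a1, the equilibrative carrier that clears adenosine, by 0.05 (SE 0.23), with -0.24 (SE 0.22) at a second spot of the same bases in row 109.

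Carriers of lipids, vitamins, phosphate, urea and choline had 7 members higher and 9 lower of 16 measured. Slc34a1, a phosphate carrier known from the kidney, had -5.42, -5.46, -5.58 and -5.29 in PNFLX, against -4.90, -5.05, -5.25 and -5.02 in controls, groups that just failed to meet (difference -0.39, SE 0.13, adjusted p = 0.277). Subtracting row and column medians turned it to 0.042. Slc44a4, of the choline transporter-like family, had -2.79, -3.31, -2.07 and -2.61 in PNFLX, against -3.45, -3.96, -3.24 and -3.22 in controls. PNFLX 2 lay among the controls, and the difference was 0.77 (SE 0.28, adjusted p = 0.305) on a spot in row 184. Slc27a2, which activates very long fatty acids, had separate groups with a difference of 0.31 (SE 0.14, adjusted p = 0.402). At a second probe, in row 46 and well above background on 5 arrays, the groups overlapped and the difference was 0.47 (SE 0.36).

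Correcting the mean signal for background with normexp turned the direction of these carriers, which were higher in the values used: Slc35b3 to -0.58, Slc16a10 to -0.35, Slc12a1 to -0.55, Slc16a4 to -0.76, Slc31a1 to -0.23, Slc28a2 to -0.23, Slc44a4 to -0.62, Slc43a2 to -0.16 and Slc27a2 to -0.29, under a median of all genes of -0.39. Of carriers named as lower it turned Slc5a6 to 0.51, Slc9a5 to 0.24, Slc7a3 to 0.20, Slc2a1 to 0.53 and Slc16a1 to 0.27. Leaving out the scaling added 0.30 to the log2 difference of 99.9% of genes with no missing spot, and with that shift Slc16a10 (2.01) and Slc35b3 (1.04) passed, while with quantile normalization Slc22a12 (-0.74) passed.

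**Figure D3:**
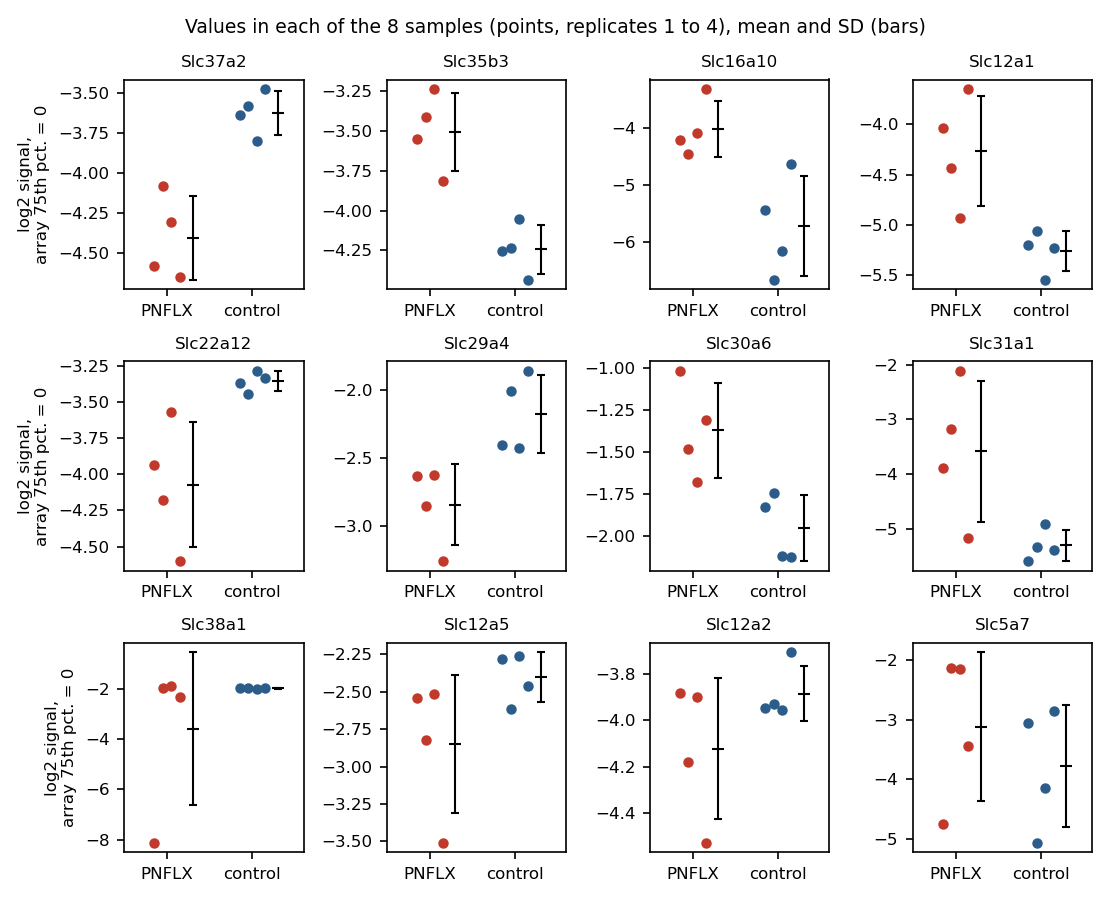
Values of 12 carriers in each PNFLX sample (left in each panel) and each control sample (right), as log2 signal with the array's 75th percentile at 0, with bars for mean and SD of 4 samples; each panel has its own vertical scale. The 2 groups are apart for Slc37a2, Slc35b3, Slc16a10, Slc12a1, Slc22a12, Slc29a4 and Slc30a6, and PNFLX 1 alone is low for Slc38a1.

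Samples that stood alone were unevenly spread over the arrays. In 17 carriers the lowest sample lay more than 1 log2 unit below the next, and this was PNFLX 1 for 6 carriers and PNFLX 4 for 5. In 7 carriers the highest sample lay more than 1 unit above the next, and for 6 of these it was PNFLX 3. The fatty acid carrier Slc27a4, a single-array case chosen after its values were seen, had -3.52, 0.69, 0.77 and 0.57 in PNFLX, against 1.10, 0.84, 0.97 and 0.90 in controls. Its groups did not overlap, yet the difference of -1.33 had an SE of 0.89 (adjusted p = 0.561), since PNFLX 1 lay apart. PNFLX 4 held the lowest value of 59 of the 175 carriers, and of 2649 of all 9442 genes.

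Spots that repeat a sequence gave 2 readings of the same target on each array. Counting pairs where both spots passed the filter, 29 carriers had the same 60 bases at 2 spots. The PNFLX minus control differences of the 2 spots were apart by 0.28 in the median, and had opposite signs in 10 of 29 pairs (34.5%, against 35.6% of 1945 such pairs over all probes). Where both spots lay in rows 21 to 172 the median gap was 0.18 over 17 pairs, and 0 of these were over 1. Where at least 1 spot lay within 20 rows of an end it was 0.39 over 12 pairs, and 3 of these were over 1. Over all probes the median gaps were 0.16 for 1266 inner pairs and 0.41 for 679 pairs near an end. The median SE of a carrier's difference, 0.22 over all measured carriers, comes from the spread between samples and is not the same measure as these gaps.

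Slc24a2, the potassium-dependent sodium-calcium exchanger of neurons, disagreed most. Its spot in row 4 had 2.53, 1.81 and 1.50 in PNFLX 1 to 3, with PNFLX 4 left out for an outlier flag, against 1.31, 1.67, 1.40 and 0.25 in controls, a difference of 0.79 (SE 0.39, adjusted p = 0.450). Its spot in row 192 had -0.28, -1.12, -2.65 and -4.54 in PNFLX, against -0.95, 1.99, 1.62 and 2.28 in controls, a difference of -3.38 (SE 1.02). The same sequence was thus higher in PNFLX at one end of the array and lower at the other.

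The genes of the next cases, Slc12a7, Slc16a6, Slc22a13 and Slc7a9, were chosen after their values were seen. Slc12a7, the potassium-chloride cotransporter KCC4, had -0.80, -1.42, -0.82 and -1.57 in PNFLX, against -3.61, -1.23, -2.76 and -3.54 in controls, at its spot in row 14. At row 148 the same 60 bases had -1.69, -1.96, -1.53 and -2.86 in PNFLX, against -1.82, -1.11, -0.49 and -1.21 in controls. The first spot gave 1.63 (SE 0.51) and the second, the brighter and the one used, gave -0.85 (SE 0.36, adjusted p = 0.369). A different probe sequence in row 42 gave 0.01, and another in row 38 was well above background on 0 arrays.

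Slc16a6, a monocarboxylate carrier, had -1.97, -2.29, -2.31 and -2.15 in PNFLX, against -1.87, -2.16, -2.03 and -1.97 in controls, at its spot in row 87, a difference of -0.17 (SE 0.13). In row 192, the last of the array, the same bases had -3.29, -3.72, -2.35 and -5.34 in PNFLX, against -1.44, -1.98, -1.62 and -1.21 in controls, a difference of -2.12 (SE 0.56). Both spots placed PNFLX lower, but the sizes differed by 1.94 on the log2 scale.

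Other pairs gave like values. Slc5a7, the high-affinity choline carrier of cholinergic terminals, had -4.76, -2.13, -2.15 and -3.43 in PNFLX, against -3.06, -5.07, -4.14 and -2.86 in controls, at row 152. At row 99 it had -4.81, -2.25, -2.32 and -3.56 in PNFLX, against -2.99, -4.74, -4.12 and -2.84 in controls, and no array differed by more than 0.33. Its wide spread between samples, low in PNFLX 1, control 2 and control 3, was therefore read alike at 2 places, and the group differences were 0.66 (SE 0.69, adjusted p = 0.707) and 0.44 (SE 0.65). Slc7a9, a cystine carrier known from the kidney, had -2.60 and -2.68 in PNFLX 3 at its spots in rows 22 and 150, where the other PNFLX samples had -5.78 to -4.98 and the controls -5.44 to -4.02. That high value, too, was present at both spots, while control 2 differed by 0.98 between them.

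Slc22a13, an organic anion carrier, had both of its spots in row 160, at columns 1 and 76. At column 1 it had -3.89, -3.23, -2.90 and -4.10 in PNFLX, against -3.40, -1.95, -1.69 and -1.45 in controls. Column 76 gave -4.23, -2.31, -1.78 and -2.63 in PNFLX, against -1.44, -1.61, -1.49 and -1.93 in controls. The differences of -1.41 (SE 0.45) and -1.12 (SE 0.47, adjusted p = 0.368 for the brighter spot) shared their sign, while single arrays were apart by up to 1.96.

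**Figure D4:**
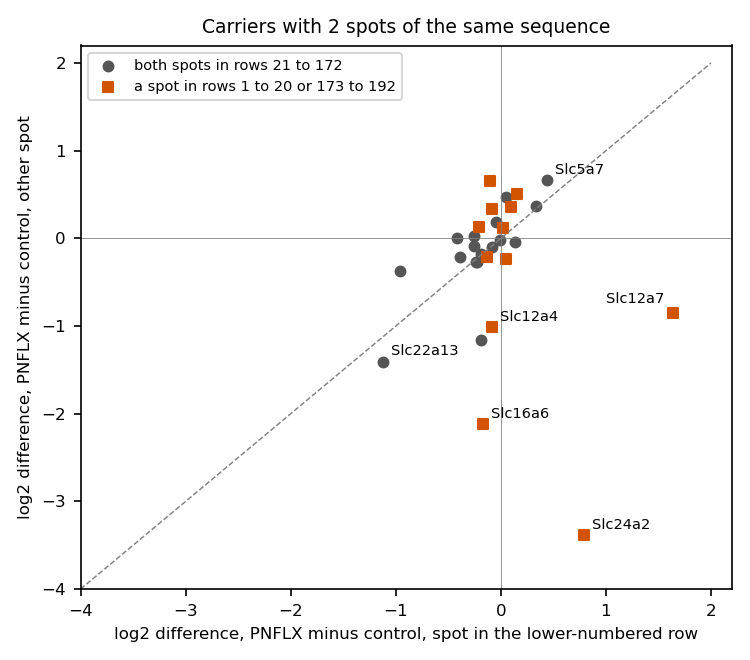
Log2 difference, PNFLX minus control, at 1 spot (horizontal) against that at the other spot of the same 60 bases (vertical) for 29 carriers, with the line of equal values dashed. Grey points have both spots in rows 21 to 172 and orange squares have a spot within 20 rows of an end; Slc24a2, Slc16a6 and Slc12a7 lie farthest from the line.

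**Figure D5:**
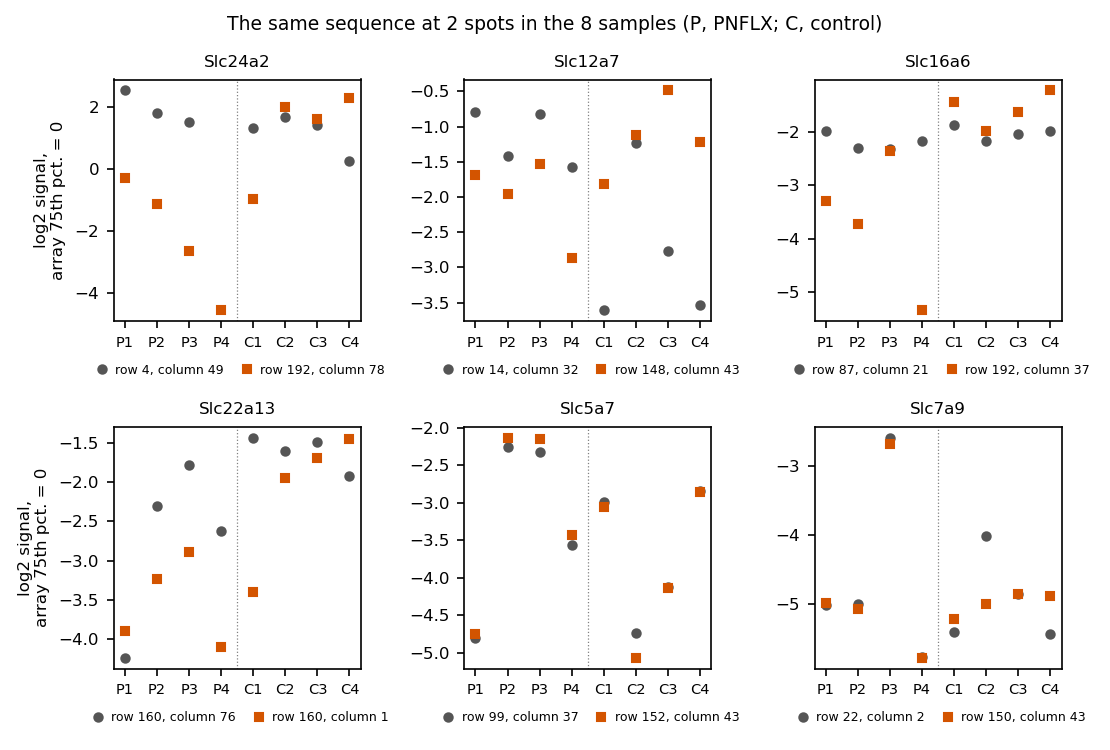
Log2 signal (array's 75th percentile at 0) of 6 carriers at their 2 spots of the same sequence, in PNFLX samples 1 to 4 (P) and control samples 1 to 4 (C). The spots of Slc5a7 lie within 0.33 of each other in every sample, while those of 1 or more samples lie far apart for Slc24a2, Slc12a7 and Slc16a6.

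By brightness, the carriers of the middle tercile of all genes stood lower in PNFLX, 49 of 70 (70.0%, against 55.7% of all genes in that tercile). In the dimmest tercile 32 of 66 carriers were lower (48.5%, against 55.7% of all genes), and in the brightest 21 of 39 (53.8%, against 52.1%). By place, 52 carriers were higher and 88 lower in spot rows 21 to 172 (62.9% lower, against 56.7% of all genes there). In rows 1 to 20, 10 carriers were higher and 10 lower, where all genes had 463 higher and 476 lower. In rows 173 to 192, 11 carriers were higher and 4 lower. All genes in those last rows also leaned higher, 571 against 400.

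Pumps and partners that work with carriers, such as the sodium pump and the kinases that set cotransporter activity, were measured in 29 of 36 genes, 18 higher and 11 lower, and 0 passed the test, with 7 at an unadjusted p under 0.05, a limit that 12.8% of all genes met. Atp1b2, a subunit of the sodium pump in glia and neurons, had -1.15, -1.84, -1.96 and -2.57 in PNFLX, against -3.22, -2.76, -3.57 and -2.76 in controls, a difference of 1.20 (SE 0.31, adjusted p = 0.163) on a spot in row 2. Wnk1, the kinase that senses chloride and acts on the Slc12 cotransporters, had -2.77, -2.99, -2.69 and -3.38 in PNFLX, against -2.52, -2.31, -2.40 and -2.26 in controls. Its groups did not overlap, with a difference of -0.58 (SE 0.17, adjusted p = 0.220). The organic anion carrier Slco3a1 (-0.44, SE 0.15) and the export pump Abcc1 (-0.33, SE 0.12) were also lower in every PNFLX sample than in any control, with adjusted p of 0.273 and 0.297.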

How the data were processed

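RNA of whole hippocampi, labelled with Cy3, was read on single-colour arrays, per the labels' protocols. The deposited intensity values of each spot (processed, mean and background signal) and the flags come from Agilent Feature Extraction, per the file headers. The authors also deposited a log2 table; against the scanner values it equals the scaled values used here less each probe's median of the 8 arrays, to within 0.00241. Its column medians were -0.04, -0.07, 0.10 and -0.13 for PNFLX 1 to 4 and 0.06, -0.05, 0.04 and 0.04 for control 1 to 4.

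Values are the log2 processed signal with the 75th percentile of each array, over 15207 probes, set to 0, without 521 outlier-flagged spots. The 11600 probes that 4 or more of 8 arrays showed well above background were kept, and the brightest probe stood for each gene, which gave 9442 genes and unnamed probes. Names came from RefSeq's gene table of assembly GRCr8 for 14319 probes; carriers keep the names of the files. The comparison used limma 3.58.1 under R 4.3.3 (empirical Bayes, Benjamini-Hochberg over all 9442, threshold 0.05), which gives every p here; SE is the moderated standard error. The number of arrays limits the precision. The fit was tested on simulated data with the means and spreads of these genes, in which 200 genes were changed. It recovered 57% of 2-fold and 86% of 4-fold changes, and it also called 6 unchanged genes.

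Genes named in the text are the 10 carriers of smallest p in each direction, the 2 of smallest p in each of 10 family groups, a set of carriers with known brain roles, and 4 pumps or partners of smallest p; exceptions are marked, and 2 carriers are not reported here by name. Members and lists were chosen with earlier results of these data known. Alternatives were the background correction, the scaling, the filters on dim and flagged spots, the end rows, row and column medians, the mean over probes, the authors' log2 table, the replicate number as a block, leaving out each sample, and, added after seeing the data, averaging spots of the same sequence. Samples with the same number deviated together weakly at most (correlations of 0.005, 0.083, 0.090 and 0.022 for numbers 1 to 4). The highest correlation of a PNFLX sample with a control of another number was 0.039, -0.018, 0.042 and 0.044. The own number was thus the best match for numbers 2 and 3, and not for 1 and 4. As every same-number correlation was under 0.1, the number was not taken as a pairing.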

Additional observations from a re-analysis of the deposited data

Results flagged for a closer look

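Of 85 sets of 4 samples looked at, 8 held a sample far from the other 3, judged by its gap to the nearest as a share of the whole range against Dixon's 95% critical value, which chance alone passes in about 1 of 20 sets. In PNFLX, Slc38a1 in PNFLX 1 had a share of 0.93, at -8.12 where the others had -2.35 to -1.91. Slc39a10 in PNFLX 4 had 0.948, at -2.79 where the others had -1.51 to -1.44. PNFLX 3 was the high sample for Slc16a4, with 0.912 at -3.51 against -5.01 to -4.88 in the others, and for Slc7a3, with 0.898 at 0.04 against -0.55 to -0.49. Among controls, control 4 was the low sample for Slc8a1, with 0.859 at -5.05, and the high one for Slc12a2, with 0.885 at -3.71. Control 3 was low for Slc7a5, with 0.855 at -4.20, and control 2 for Slc22a15, with 0.844 at -3.75.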

How the results depend on the processing

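Carriers passed without scaling between arrays (2) and with quantile normalization (1), and 0 passed in the values used, under each other setting run and with any 1 sample left out. Over all genes, 48 passed, 27 with normexp, 108 without scaling, 73 with quantile normalization, 26 without a filter on dim probes, 25 with probes above background on all arrays, 0 without the first and last 5 spot rows, 26 after row and column medians were subtracted and 5 with the replicate number as a block; leaving out samples gave 14 to 60. The number of higher carriers, 73, was 35 with normexp, 134 without scaling and 66 to 82 without a sample; that of lower carriers, 102, was 41 without scaling and 93 to 109 without a sample. The median of carriers was -0.55 with normexp, 0.20 without scaling and -0.13 to -0.03 without a sample. Carriers with separate groups numbered 32 with normexp, 11 after row and column medians and 25 to 33 without a sample, where 3 against 4 values separate more easily. Over all genes the share with separate groups, 11.0% in the values used, was 13.8% with normexp and 7.81% after row and column medians. Leaving out any 1 sample raised that share too. The block left 0 carriers past the threshold.

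Single carriers that turned over with normexp, beside those in the results, were Slc16a7 (-0.14), Slc2a3 (-0.53), Slc4a10 (-0.82), Slc5a7 (-0.35), Slc7a11 (-0.60), Slc7a5 (-0.036) and Slc8a1 (-0.91). Those in the results that had been higher were Slc12a1 (-0.55), Slc16a10 (-0.35), Slc16a4 (-0.76), Slc27a2 (-0.29), Slc28a2 (-0.23), Slc31a1 (-0.23), Slc35b3 (-0.58), Slc43a2 (-0.16) and Slc44a4 (-0.62). Those in the results that had been lower were Slc16a1 (0.27), Slc2a1 (0.53), Slc5a6 (0.51), Slc7a3 (0.20) and Slc9a5 (0.24). Without scaling, which moved 99.9% of genes with no missing spot up by the same 0.30, Slc12a2 (0.059), Slc16a1 (0.27), Slc2a1 (0.22), Slc30a3 (0.19) and Slc38a2 (0.12) turned over. After row and column medians these were Slc16a1 (0.36), Slc24a2 (-0.12), Slc29a1 (-0.22), Slc30a6 (-0.58), Slc34a1 (0.042), Slc4a10 (-0.16) and Slc7a3 (0.074). With the mean over a gene's probes, and with spots of the same sequence averaged, they were Slc24a2 (-2.11) and Slc29a1 (-0.094). Without a sample, sign changes left ranges of -0.14 to 0.075 for Slc16a1, -0.15 to 0.24 for Slc16a7, -0.17 to 0.17 for Slc29a1, -0.31 to 0.47 for Slc2a3, -0.24 to 0.031 for Slc30a3, -0.46 to 0.20 for Slc38a2, -0.55 to 0.018 for Slc39a10, -0.36 to 0.37 for Slc4a10, -0.12 to 0.18 for Slc7a11, -0.23 to 0.60 for Slc7a5 and -0.15 to 0.42 for Slc8a1. Beyond the shift without scaling, the cause of these changes was not tested.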
